A study of Mus musculus with 130 samples.

Results

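Livers of male C57BL/6J mice fed an elevated-iron diet (500 ppm iron) were compared with livers of mice of the same sex and strain fed chow. The comparison holds 6 of the 130 mice of the series, 3 per diet, chosen by the diet in the sample labels. Of the 35274 gene identifiers measured in these livers, 13560 had enough counts to be tested, and all of them entered the comparison. Total RNA came from 20 mg of tissue of the large liver lobe, with an integrity number (RINe) above 8 per the labels, and the library kit was one for stranded mRNA sequencing. The other 9 mice of the same diet study, 3 each on a diet sufficient in iron (50 ppm), on 2% carbonyl iron (20000 ppm) and on 2% carbonyl iron with cellulose, entered the fit to estimate the spread between mice. The labels name no transgene and no deleted gene in any of these mice. The labels give neither the age of these mice nor the time on the diet, and they do not give the iron content or the other ingredients of the chow. Iron and any other difference between the 500 ppm diet and chow therefore cannot be told apart here. The labels give separate mice but no litter, cage or batch.

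The liver senses body iron and sets how much of it enters the blood. Endothelial cells of the sinusoids release bone morphogenetic proteins (BMP6 and BMP2), which act through SMAD transcription factors in hepatocytes to switch on Hamp, the gene of the hormone hepcidin. Hepcidin binds the exporter ferroportin and blocks the release of iron from gut cells and macrophages, while the transcripts of several transport and storage proteins respond to iron through iron-responsive elements. The liver is also the main site of drug and toxin metabolism, carried out by cytochrome P450 enzymes, which insert oxygen into foreign compounds, and by transferases that attach glutathione, sulfate or glucuronic acid.

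Library totals ran from 11918443 to 20357169 counts in the 500 ppm group and from 11201679 to 14177352 in the chow group, the largest being that of replicate 2 on 500 ppm. Values are given as CPM, the usual scaling of counts to the library's total, with totals adjusted by TMM, a method that equalizes the bulk of genes between libraries. Differences are log2 changes of 500 ppm against chow from one edgeR quasi-likelihood fit of all 15 mice of the diet study. Standard errors (SE) were derived from the log2 change and the F statistic of that fit. A gene is said to have risen or fallen only where its Benjamini-Hochberg adjusted p from edgeR was under 0.05, and the SD is over the 3 mice of a group. Hepatocyte markers were present in all 6 livers: 10 of them, albumin and apolipoprotein genes included, summed to 93506, 96546 and 79724 CPM on 500 ppm and 99393, 95581 and 89422 CPM on chow.

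Some libraries stood apart from their group mates. Among 9509 genes that averaged 5 CPM or more over the 6 mice, replicate 2 on 500 ppm lay at least 2-fold above both mates in 99 genes and at least 2-fold below both in 29. The corresponding counts were 20 and 25 for replicate 1 on 500 ppm, 14 and 35 for replicate 3, and between 10 and 51 on either side for the chow mice. Genes with the widest gap above the mates included several that are higher in female than in male mouse liver. The P450 gene Cyp2b9 stood at 0.861, 145 and 0.144 CPM in replicates 1, 2 and 3 on 500 ppm and Cyp2a4 at 0.344, 146 and 1.51 CPM. Both mates were far lower in each gene, as were the 3 chow mice, at 0.094, 0.932 and 0.218 CPM for Cyp2b9 and 0.94, 0.652 and 0.509 CPM for Cyp2a4. High levels were not particular to replicate 2: the mice on 2% iron stood at 190, 105 and 132 CPM for Cyp2b9. For Cyp2a4 they stood at 46.7, 23.6 and 43.4 CPM. Only 41.9% of the 31-base stretches of Cyp2a4 transcripts occur in no other gene, so its reads may be split with Cyp2a5. In the major urinary protein gene Mup17 replicate 2 was instead below its mates, at 854, 232 and 1043 CPM on 500 ppm. The chow mice stood at 253, 444 and 314 CPM, so that replicate 2 lay just below the chow range and its mates above it. On 2% iron Mup17 stood at 1.16, 2.58 and 3.75 CPM. Only 13.8% of its 31-base stretches occur in no other gene. The 4 Y-linked genes measured summed to 174 to 191 CPM in all 6 mice. Neutrophil markers also separated replicate 2, with sums of 0.344, 9.02 and 0.434 CPM on 500 ppm and 0.846, 0.466 and 0.874 CPM on chow. The counts of calls and the genes the results turn on are therefore also given without replicate 2; its part in the other values was not tested.

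**Figure D1:**
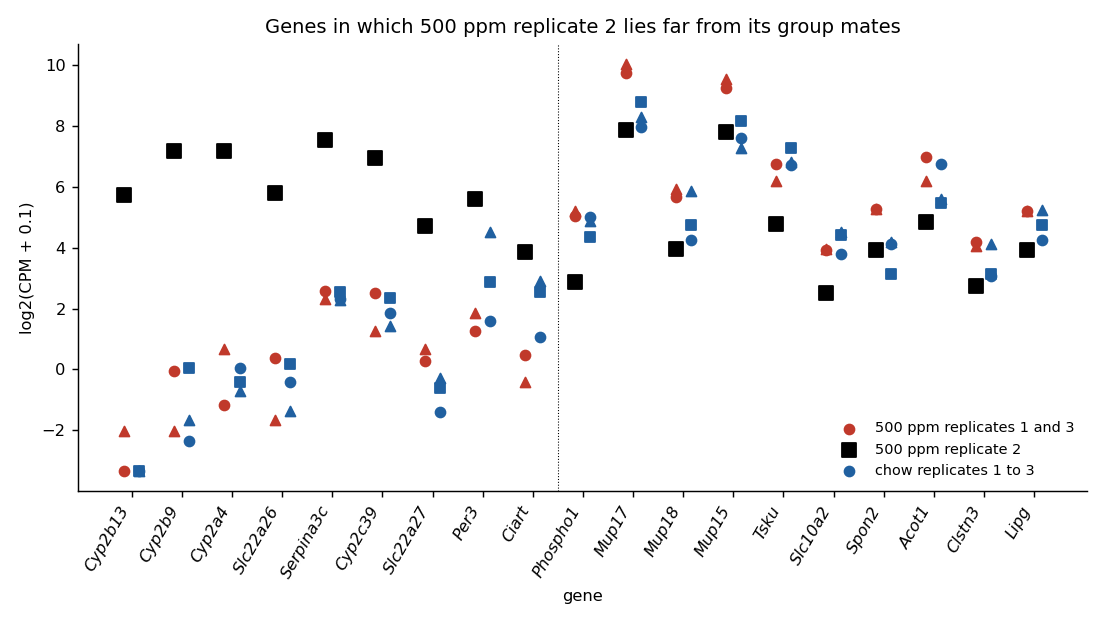
Level of genes in which replicate 2 on 500 ppm lay far above (left of the dotted line) or far below both group mates, as log2(CPM + 0.1), with 1 point per mouse (black squares, replicate 2; red, its mates; blue, chow). Replicate 2 is far from its mates in each gene by construction, since the genes were chosen for that gap; no test belongs to the plot.

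With all 6 mice, 80 of 13560 genes (0.590%) passed the threshold, 25 of them higher on 500 ppm (0.184%) and 55 lower (0.406%). An unadjusted p under 0.05 was reached by 1858 genes (13.7%). Counts of list members given below are to be read beside these shares. In all 80 genes the 3 mice of one group lay entirely above the 3 of the other, which was also the case for 17.7% of all genes tested. Among the 80, 14 rose and 28 fell more than 2-fold. The median log2 change of all genes tested was -0.0036, a value that the TMM scaling holds near 0. Without replicate 2 on 500 ppm, 13821 genes could be tested and 55 were called (0.398%), 16 higher (0.116%) and 39 lower (0.282%).

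**Figure D2:**
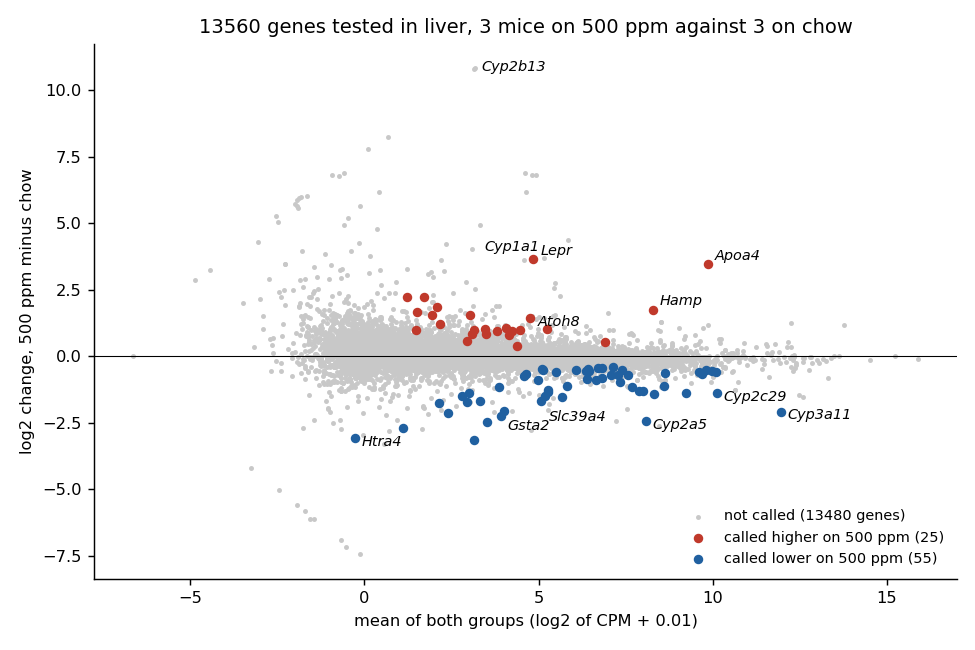
Log2 change of 500 ppm against chow for each of 13560 genes against its mean level in both groups, as log2(CPM + 0.01); red and blue points are the 25 genes called higher and the 55 called lower by edgeR at an adjusted p under 0.05. Lepr and Apoa4 are the red points with the largest changes, the grey point Cyp2b13, high in replicate 2 alone, was not called, and the P450 genes Cyp3a11, Cyp2a5 and Cyp2c29 lie among the falls.

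Hamp, the hepcidin gene (ENSMUSG00000050440, chr7:30942368-30944032 on the minus strand of GRCm38), rose on 500 ppm. Its level was 484, 665 and 286 CPM in replicates 1 to 3 on 500 ppm and 139.8, 96.1 and 194 CPM on chow, so that each mouse on 500 ppm lay above each chow mouse. The group means were 478 ± 189.9 CPM (SD, n = 3) and 143 ± 49.3 CPM (SD, n = 3), a log2 change of 1.74 (SE 0.31) with an edgeR adjusted p of 0.0185. Replicate 2 was the highest mouse; without it the log2 change was 1.42 and the adjusted p 0.068, and without chow replicate 2, the lowest chow mouse, they were 1.52 and 0.105. The call was also lost without chow replicate 1 (adjusted p 0.0799), so it was kept in 3 of the 6 fits that left out 1 mouse, and with the 500 ppm and chow groups fitted alone the adjusted p was 0.15. On the neighbouring diets Hamp stood at 203, 384 and 240.4 CPM on 50 ppm and 686, 771 and 727 CPM on 2% iron. The log2 change against the same chow mice was 0.94 for 50 ppm (edgeR adjusted p 0.272) and 2.34 for 2% iron (adjusted p 0.000254). The 500 ppm mice overlapped with those on 50 ppm, and the difference between these 2 diets had an edgeR adjusted p of 1. Of the 31-base stretches of Hamp transcripts 66.3% occur in no other gene, so reads may be split with its paralog Hamp2. Hamp2 stood at 38.4, 184 and 21.9 CPM on 500 ppm and 11.2, 16 and 23.1 CPM on chow, with replicate 2 again far above its mates and the groups overlapping (log2 change 2.28, edgeR adjusted p 0.12).

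The 200 bases before the Hamp start site (RefSeq, GRCm38.p6, chr7:30944030-30944229, minus strand) are shown because the SMAD response of Hamp is known to run through elements close to its start. Capitals mark the single match to GGCGCC, a core sequence bound by BMP-activated SMADs, 109 bases before the start.
Hamp: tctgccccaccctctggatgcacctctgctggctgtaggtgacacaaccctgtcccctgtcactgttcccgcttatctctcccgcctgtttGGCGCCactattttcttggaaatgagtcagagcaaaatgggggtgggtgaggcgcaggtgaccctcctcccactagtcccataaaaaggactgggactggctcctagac
GGCGCC occurred on either strand in 11.9% of 32851 RefSeq promoters of the same length (250 bases before to 50 after the start). Promoter entries were matched to 59 of the 80 called genes, 18 that rose and 41 that fell. GGCGCC was present in 8 of the 18 and in 5 of the 41, a description of these windows and not of binding. The motif was chosen after the calls were known, so these counts are no test of it.

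Among 10 known targets of the BMP and SMAD pathway in hepatocytes, 2 rose, Hamp and Atoh8, and none fell. Over all genes tested 0.184% were called higher and 0.406% lower. The median log2 change of the list was 0.59, against -0.0036 for all genes. Without replicate 2 the median was 0.13. Atoh8 encodes a transcription factor that lies downstream of BMP signalling. It stood at 22.6, 32.1 and 33.2 CPM on 500 ppm and 14, 14.1 and 16.7 CPM on chow. The groups did not overlap, and replicate 2 lay between its mates. The log2 change was 0.97 (SE 0.15) with an edgeR adjusted p of 0.0103, and without replicate 2 it was 0.90 with 0.0418. Without chow replicate 2 the adjusted p was 0.0649. Id1, an inhibitor of helix-loop-helix factors, and Smad7, which feeds back on the pathway, changed sign without replicate 2. Id1 stood at 4.13, 21.4 and 4.53 CPM on 500 ppm and 3.85, 0.932 and 12.6 CPM on chow, and its log2 change of 0.80 (edgeR adjusted p 0.639) became -0.48 without that mouse. Smad7 stood at 10.8, 32.8 and 14.8 CPM on 500 ppm and 11, 9.88 and 27.1 CPM on chow, and its log2 change of 0.29 (adjusted p 0.802) became -0.34. Neither gene was called in either fit, and in both the 500 ppm and chow mice overlapped.

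Of 14 ligands, receptors and transducers of the pathway none was called by edgeR, with a median log2 change of -0.01 (0.02 without replicate 2). At an unadjusted p under 0.05 there were 1 higher and 1 lower, and DESeq2 called 1 gene. The ligand Bmp6 stood at 8.61, 13.5 and 8.48 CPM on 500 ppm and 5.26, 4.75 and 5.02 CPM on chow. Each mouse on 500 ppm lay above each chow mouse, with a log2 change of 1.04 (SE 0.25) and an edgeR adjusted p of 0.0806, which missed the threshold. Without replicate 2, the highest mouse, they were 0.77 and 0.26. On 2% iron Bmp6 stood at 25, 30.1 and 31.4 CPM and on 50 ppm at 4.07, 7.64 and 5.72 CPM. The second ligand Bmp2 (0.26), the coreceptor Hjv (-0.0017), the transferrin receptor Tfr2 (-0.10), which takes part in iron sensing, and the protease Tmprss6 (-0.05), which lowers the signal, had log2 changes with edgeR adjusted p-values of 0.729, 0.995, 0.788 and 0.875.

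**Figure D3:**
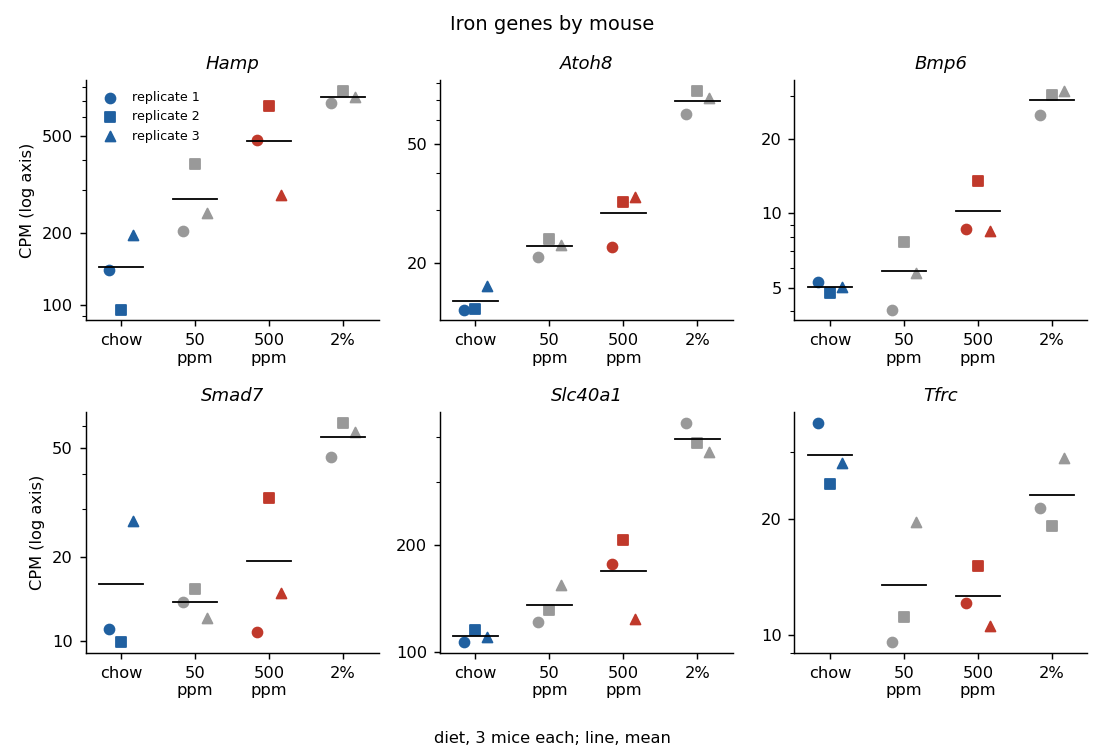
Levels of iron genes in each mouse on chow, 50 ppm, 500 ppm and 2% iron (TMM-scaled CPM, log axis; points are mice, with 1 symbol per replicate number, and lines are means of 3 mice). Hamp is at 286 to 665 CPM on 500 ppm, above the chow mice at 96.1 to 194, while the 50 ppm mice lie in between and overlap with 500 ppm.

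None of 19 genes of iron uptake, transport and storage was called by edgeR, and the median log2 change was -0.06 with and without replicate 2, where again none was called. At an unadjusted p under 0.05 there were 2 higher and 5 lower, where 13.7% of all genes tested reached that in either direction. DESeq2 called 1 higher and 2 lower. Tfrc, the receptor through which cells take up transferrin iron and whose transcript is degraded when iron is plentiful, stood at 12.1, 15.1 and 10.6 CPM on 500 ppm and 35.6, 24.8 and 28 CPM on chow. The 3 mice on 500 ppm were all lower than the 3 on chow, but the log2 change of -1.22 (SE 0.32) had an edgeR adjusted p of 0.108, and without replicate 2 they were -1.38 and 0.182. Slc40a1, which encodes ferroportin, stood at 176, 206 and 124 CPM on 500 ppm and 107, 115 and 110.3 CPM on chow (log2 change 0.61, adjusted p 0.102). Its log2 change was 0.44 without replicate 2 (edgeR adjusted p 0.302), and without replicate 3, the lowest mouse on 500 ppm, it was 0.79 and passed the threshold (0.0265). The ferritin heavy chain gene Fth1 stood at 898, 877 and 921 CPM on 500 ppm and 1011, 1158 and 985 CPM on chow, a log2 change of -0.23 with a 95% interval from -0.47 to 0.01. The light chain gene Ftl1, whose reads can be shared with pseudogene copies, had a log2 change of -0.06 (95% interval -0.32 to 0.21). Among 16 genes of heme synthesis and breakdown none was called by edgeR or DESeq2, and 1 had an unadjusted p under 0.05 (median log2 change -0.04). Hmox1, the inducible heme oxygenase, stood at 7.14, 44.7 and 9.49 CPM on 500 ppm and 10.2, 10.8 and 13.7 CPM on chow, and its log2 change of 0.85 became -0.48 without replicate 2, with an edgeR adjusted p of 0.497 with that mouse. One reductase of metal ions, outside these lists, rose in each of the 14 settings run: Steap2, which reduces ferric iron and copper, stood at 18.4, 20.4 and 17 CPM on 500 ppm and 9.5, 10.5 and 8.72 CPM on chow. Its groups did not overlap and its mice lay close together (log2 change 0.96, SE 0.11, edgeR adjusted p 0.00281).

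The rise with the smallest adjusted p was that of Apoa4 (ENSMUSG00000032080, chr9:46240696-46243459, plus strand), the gene of an apolipoprotein that travels on triglyceride-rich lipoproteins. It stood at 1649, 2007 and 1457 CPM on 500 ppm and 120.4, 129 and 212 CPM on chow. The lowest mouse on 500 ppm was far above the highest on chow, and the means were 1704 ± 279 CPM (SD, n = 3) and 154 ± 50.6 CPM (SD, n = 3). The log2 change was 3.47 (SE 0.32) with an edgeR adjusted p of 0.000465, and without replicate 2 it was 3.34 with 0.00203. It was called in each of the 14 settings run. On 50 ppm Apoa4 stood at 1239, 1822 and 1278 CPM and on 2% iron at 7831, 4882 and 4199 CPM. Against the same chow mice the log2 change was 3.23 for 50 ppm (edgeR adjusted p 0.000983) and 5.20 for 2% iron (adjusted p 6.57e-06). The 200 bases before its RefSeq start site (chr9:46240644-46240843, plus strand, GRCm38.p6) are printed as those of a rise called in every setting. Capitals mark the 1 match to the nuclear receptor half-site TGAACT, which lies on the other strand and reads AGTTCA here, 179 bases before the start.
Apoa4: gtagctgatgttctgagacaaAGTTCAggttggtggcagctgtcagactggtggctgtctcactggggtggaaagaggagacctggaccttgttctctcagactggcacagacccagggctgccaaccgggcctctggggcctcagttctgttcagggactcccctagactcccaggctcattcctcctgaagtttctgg

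Lepr, the leptin receptor gene (chr4:101717404-101815352, plus strand), had the largest log2 change of the rises. It stood at 32.5, 93 and 35.3 CPM on 500 ppm and 3.95, 3.54 and 5.31 CPM on chow. Replicate 2 was the highest, but both mates were also several-fold above all chow mice. The log2 change was 3.64 (SE 0.58, edgeR adjusted p 0.0113), it was 2.97 without replicate 2 (adjusted p 0.0385), and the adjusted p was 0.0859 without chow replicate 2. On 50 ppm Lepr stood at 24.8, 69.8 and 58.3 CPM and on 2% iron at 59.3, 58.9 and 37.2 CPM.

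Fst encodes follistatin, which binds activins, and stood at 2.24, 4.12 and 5.18 CPM on 500 ppm against 0.846, 0.746 and 0.872 CPM on chow (log2 change 2.22, edgeR adjusted p 0.0365). Nrp2, a coreceptor for semaphorins and VEGF, stood at 45.5, 30.9 and 42.7 CPM on 500 ppm and 14.4, 11.3 and 17.7 CPM on chow. Its rise of 1.45 (SE 0.22, edgeR adjusted p 0.00989) was larger without replicate 2, at 1.60. Mmp14, a membrane-bound protease of the extracellular matrix, stood at 47.1, 59 and 44.8 CPM on 500 ppm and 28.6, 21.5 and 24.9 CPM on chow (1.01, adjusted p 0.00708). It was called in each of the 6 fits that left out 1 mouse. Cd9, a tetraspanin, rose by 1.07 (edgeR adjusted p 0.0177) and Defb1, an antimicrobial beta-defensin, by 1.67 (0.0287); both lost the call without replicate 2, at 0.068 and 0.106.

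Gal3st1, which adds sulfate to galactosylceramide, rose by 2.22 (edgeR adjusted p 0.0334) with replicate 2 at 8.72 CPM, more than 2-fold above its mates at 3.36 and 4.03 CPM. Tmem86a, a lysoplasmalogenase, stood at 15.6, 11.7 and 9.63 CPM on 500 ppm and 2.82, 3.82 and 5.74 CPM on chow (1.55, adjusted p 0.0144). Plcxd1, named for its phospholipase C domain, rose by 1.56 (adjusted p 0.0103), the kinase Ttbk1 by 1.86 (0.0209) and the inositol phosphatase Impa2 by 1.20 (0.0437). The creatine carrier Slc6a8 rose by 0.98 (0.00989), the monocarboxylate carrier Slc16a6 by 1.03 (0.039) and the sialyltransferase St3gal2 by 0.98 (0.0232). In none of these 8 genes did the groups overlap. Of the 8, the calls of Tmem86a, Plcxd1, Ttbk1, Slc6a8 and St3gal2 held without replicate 2. Their edgeR adjusted p-values there were 0.0418, 0.0295, 0.0418, 0.0418 and 0.038, while those of Gal3st1, Impa2 and Slc16a6 were 0.111, 0.0612 and 0.0973. Of the 6 fits that left out 1 mouse, Plcxd1 and Slc6a8 were called in 5, Tmem86a in 4 and Gal3st1 in 3. Impa2 and Slc16a6 were called in 1 each. Ttbk1 and St3gal2 were also called in only 1, the fit without replicate 2 on 500 ppm. The kinases Map4k4 (0.93) and Rps6ka1 (0.79) and the membrane-binding copine Cpne2 (0.85) rose with all mice and without replicate 2. With all mice their edgeR adjusted p-values were 0.0202, 0.0484 and 0.00989. They were called in 3, 2 and 5 of the 6 fits that left out 1 mouse.

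Of 25 P450 genes of families that handle foreign compounds, 7 fell and none rose by edgeR, where 0.406% of all genes tested were called lower and 0.184% higher. The median log2 change of the list was -0.51 against -0.0036 for all genes, with 16 genes below 0 and 9 above. At an unadjusted p under 0.05 there were 12 lower and 6 higher, against 13.7% of all genes tested in either direction. DESeq2 called 10 lower and 2 higher. The transcripts of the list summed to 10214, 9364 and 11689 CPM on 500 ppm and to 18306, 22355 and 14511 CPM on chow, so that each 500 ppm mouse was below each chow mouse. Without replicate 2, 5 genes of the list were called, all lower, and the median was -0.79. In the liver as a whole, fewer cells of a type and less RNA per cell cannot be told apart.

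Cyp3a11 (chr5:145854426-145879964, minus strand), the main CYP3A enzyme of mouse liver, stood at 1678, 1628 and 1244 CPM on 500 ppm and 6502, 8770.0 and 3949 CPM on chow. All 3 mice on 500 ppm were below all 3 on chow, where replicate 2 was the highest and replicate 3 the lowest. The means were 1516 ± 238 CPM (SD, n = 3) and 6407 ± 2412 CPM (SD, n = 3). The log2 change was -2.08 (SE 0.32, edgeR adjusted p 0.00989), it was -2.13 without replicate 2 on 500 ppm (adjusted p 0.0385), and without chow replicate 2 it was -1.78 (adjusted p 0.0604). Cyp2c29 (chr19:39269405-39330713, plus strand), a CYP2C enzyme of arachidonic acid and drug oxidation, stood at 525, 542 and 769.9 CPM on 500 ppm and 1479, 2005 and 1323 CPM on chow. Its log2 change of -1.39 (SE 0.18, edgeR adjusted p 0.00457) was called in each of the 6 fits without 1 mouse. The neighbouring Cyp2c50 (chr19:40089688-40113950, plus strand) stood at 336, 278 and 391 CPM on 500 ppm and 851, 1046 and 712 CPM on chow. Its groups did not overlap, and its log2 change of -1.38 (SE 0.18, edgeR adjusted p 0.00457) passed the threshold in every setting run.

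The 200 bases before the RefSeq start sites of these 3 genes are shown because they fell together (Cyp3a11 chr5:145879855-145880054, minus strand; Cyp2c29 chr19:39286885-39287084 and Cyp2c50 chr19:40089479-40089678, plus strand; GRCm38.p6). The RefSeq start of Cyp2c29 lies inside its longer GENCODE gene. Capitals mark matches on either strand to TGAACT and AGGTCA, half-sites of nuclear receptors, the class of factors known to regulate P450 genes.
Cyp3a11: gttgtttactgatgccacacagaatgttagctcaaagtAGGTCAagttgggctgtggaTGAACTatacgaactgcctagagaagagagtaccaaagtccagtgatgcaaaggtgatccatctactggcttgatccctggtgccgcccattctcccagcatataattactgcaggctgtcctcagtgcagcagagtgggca
Cyp2c29: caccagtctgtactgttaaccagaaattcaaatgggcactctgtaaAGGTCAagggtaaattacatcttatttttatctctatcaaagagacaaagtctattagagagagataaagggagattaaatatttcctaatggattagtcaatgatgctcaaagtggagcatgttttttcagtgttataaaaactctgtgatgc
Cyp2c50: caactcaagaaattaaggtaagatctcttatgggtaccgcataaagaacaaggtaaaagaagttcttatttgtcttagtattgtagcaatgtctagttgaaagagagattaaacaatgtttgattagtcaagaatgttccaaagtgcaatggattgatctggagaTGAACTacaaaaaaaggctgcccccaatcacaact
In Cyp3a11 the first base of TGAACT lay 142 and that of AGGTCA 162 bases before the start, in Cyp2c29 AGGTCA lay 154 and in Cyp2c50 TGAACT 35 bases before it. The 300-base promoters of Cyp2c29 and Cyp2c50 were identical in 60.4% of 323 aligned columns. TGAACT was found in 13.99% of all promoters, in 11 of the 41 genes that fell and in 2 of the 18 that rose. A gene was counted if any of its promoter entries matched, while the percentages are shares of single entries. AGGTCA was found in 16.3% of all promoters and in 7 of the 41 and 2 of the 18. TGACNNNGC, the core bound by the oxidative stress factor NRF2, was found in 12.4% of all promoters, 7 of the 41 and 4 of the 18. The E-box CACGTG was in 7.15% of all promoters and in 3 genes of each direction. The D-box TTATGTAA was in 0.938% of all promoters and in 2 genes that fell, and the sterol element TCACCCCAC in 0.551% and in 1 that fell. These are matches of letters in a window, and each motif was searched on both strands. TGAACT and AGGTCA, like GGCGCC, were chosen after the calls were known, so their counts are no test.

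The 4 other called genes of the list were Cyp2a5, Cyp2c54, Cyp2c55 and Cyp3a16. Cyp2a5, a coumarin hydroxylase, stood at 80.9, 85.3 and 87.4 CPM on 500 ppm and 301, 724 and 347 CPM on chow. The 500 ppm mice differed little among themselves while chow replicate 2 stood more than 2-fold above its mates (log2 change -2.44, SE 0.34, edgeR adjusted p 0.00708). The call was kept in all settings run. Cyp2c54 stood at 140.1, 128 and 139 CPM on 500 ppm and 340.0, 422 and 257 CPM on chow (-1.32, adjusted p 0.0142). The log2 change of Cyp2c55 was -2.13 (adjusted p 0.0194) and that of Cyp3a16 -2.70 (0.0334), a gene that reached 5.59 CPM at most. Outside the list, Cyp2c23, an arachidonic acid epoxygenase, stood at 121, 98.1 and 159.7 CPM on 500 ppm and 282, 287 and 280.0 CPM on chow (-1.17, adjusted p 0.0295). Cyp2b10, the classical target of the xenobiotic receptor CAR, stood at 2.41, 16.5 and 0.431 CPM on 500 ppm and 29.5, 104 and 12.7 CPM on chow. Replicate 2 overlapped with chow, and the log2 change of -2.79 (edgeR adjusted p 0.146) became -5.15 with an adjusted p of 0.038 without it. These genes have close relatives: 45.4% of the 31-base stretches of Cyp2a5, 57.7% of Cyp2c54, 70.8% of Cyp2c50, 84.3% of Cyp3a11 and 89.6% of Cyp2c29 occur in no other gene, so the split of reads among relatives is uncertain, most of all for Cyp2a5.

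**Figure D4:**
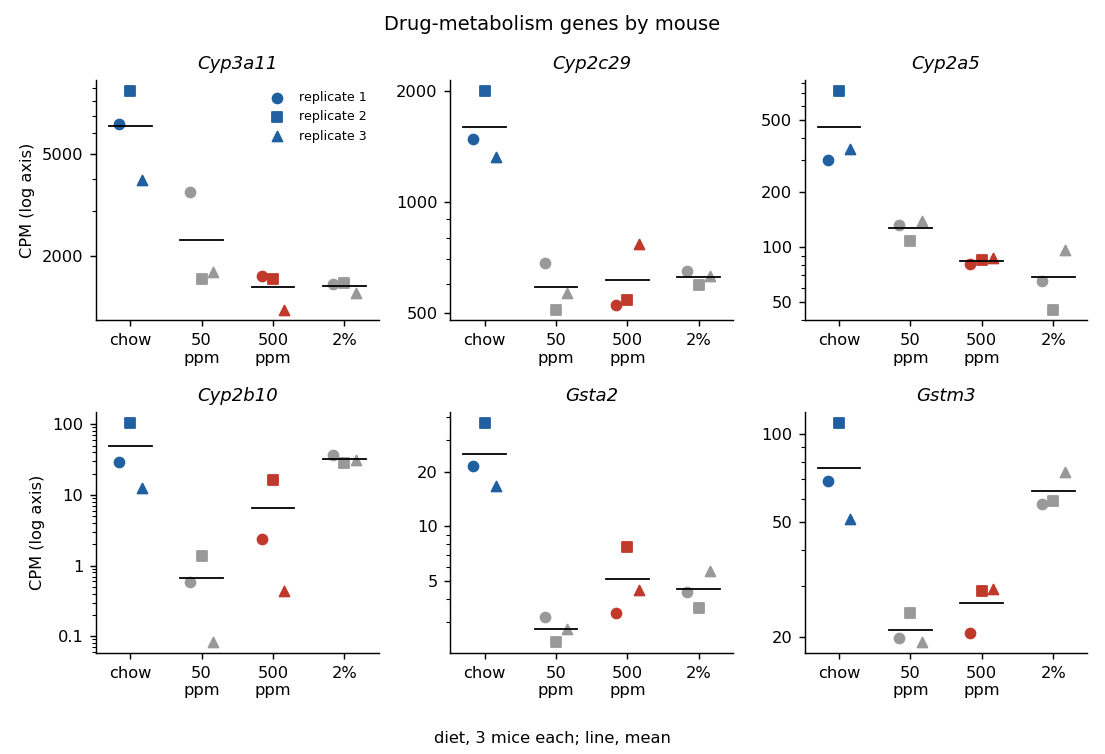
Levels of 6 genes of foreign-compound metabolism in each mouse on chow, 50 ppm, 500 ppm and 2% iron (TMM-scaled CPM, log axis; points are mice and lines are means of 3 mice). For Cyp3a11, Cyp2a5 and Cyp2c29 the 3 mice on 500 ppm lie below the 3 on chow, and for Cyp2b10 replicate 2 on 500 ppm lies within the range of chow.

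Some conjugating enzymes fell as well. Of 21 glutathione transferase genes 2 fell and none rose, where 0.406% of all genes tested were called lower and 0.184% higher. Their median log2 change was -0.52 with and without replicate 2 (3 called lower without it), and 18 of the 21 had log2 changes below 0. Gstm3 (chr3:107963696-107969283, minus strand) stood at 20.6, 28.8 and 29.3 CPM on 500 ppm and 68.8, 109 and 51.1 CPM on chow, with no overlap (log2 change -1.53, SE 0.25, edgeR adjusted p 0.0142). Gsta2 stood at 3.36, 7.7 and 4.46 CPM on 500 ppm and 21.5, 36.9 and 16.6 CPM on chow (-2.23, adjusted p 0.0322), and only 39.3% of its 31-base stretches are unique. Gsta4, which detoxifies products of lipid peroxidation, stood at 15.1, 31.1 and 13.1 CPM on 500 ppm and 38.7, 47.3 and 28.5 CPM on chow. It was called only without replicate 2, with a log2 change of -1.44 and an edgeR adjusted p of 0.0286.

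Of 26 genes of other conjugation steps and of transport out of the cell, 4 fell and none rose, against the same 0.406% and 0.184%. Their median log2 change was -0.35, and -0.33 without replicate 2, where 2 were called lower. The 4 were the glucuronosyltransferases Ugt2b1 and Ugt2a3 and the sulfotransferases Sult1b1 and Sult5a1. Ugt2b1 stood at 249.98, 199.5 and 296 CPM on 500 ppm and 503, 576 and 529 CPM on chow (-1.11, edgeR adjusted p 0.0177). Ugt2a3 (-0.71), Sult1b1 (-0.75) and Sult5a1 (-1.36) had adjusted p-values of 0.00932, 0.0127 and 0.0366. Outside the list, the carboxylesterase gene Ces2a stood at 155, 133 and 148 CPM on 500 ppm and 377, 421 and 289.7 CPM on chow (-1.32, edgeR adjusted p 0.00827) and was called in every setting run. A second carboxylesterase, Ces1b (-1.10), the aldo-keto reductase Akr1c19 (-1.28) and Nat8 (-1.73), which acetylates the cysteine conjugates that glutathione conjugation leads to, also fell, with edgeR adjusted p-values of 0.0438, 0.0387 and 0.0215. Pgrmc1, a heme-binding partner of P450 enzymes, stood at 744, 738 and 741 CPM on 500 ppm and 1016, 1159 and 1006 CPM on chow (-0.52, adjusted p 0.0226). Of 18 genes induced by NRF2 1 was called, Aox1, an aldehyde oxidase, which fell (-0.81, edgeR adjusted p 0.00989). The median log2 change was -0.01, and -0.09 without replicate 2. At an unadjusted p under 0.05 there were 5 lower and 1 higher, and DESeq2 called 3, all lower. The groups were separated with 500 ppm lower in 6 and higher in 3, against 9.74% and 7.92% of all genes.

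One chow mouse was the highest in most of the falls. Chow replicate 2 was the highest of the chow mice in 46 of the 55 genes that fell, chow replicate 3 in 6 and chow replicate 1 in 3. How often each chow mouse was the highest over all genes tested was not counted. Among the 25 rises the lowest chow mouse was replicate 1 in 7 genes, replicate 2 in 10 and replicate 3 in 8. Without chow replicate 2 edgeR called 15 genes, 4 higher and 11 lower, and 13 of the 15 were among the 80. The 13 genes called in each of the 6 fits that left out 1 mouse included Apoa4, Steap2 and Mmp14 among the rises and Cyp2a5, Cyp2c29, Cyp2c50, Ces2a, Cth, Slc39a4, Antxr2 and Hexa among the falls. The remaining 2 are predicted genes.

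Slc39a4 (chr15:76612383-76617384, minus strand), which encodes the zinc importer ZIP4, stood at 15.6, 21.3 and 9.92 CPM on 500 ppm and 54.2, 58.5 and 40.1 CPM on chow. The groups were well apart, with replicate 2 the highest of the 500 ppm mice. The log2 change was -1.69 (SE 0.24, edgeR adjusted p 0.00852) and -2.003 without replicate 2 (adjusted p 0.0078). It was the 1 called gene of 8 for metallothioneins and zinc or metal transport. The metallothionein gene Mt1 stood at 35.3, 212 and 10.5 CPM on 500 ppm and 114, 82.7 and 80.4 CPM on chow, with replicate 2 far above its mates and an edgeR adjusted p of 0.975.

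Of 31 genes of amino acid and one-carbon metabolism 2 were called, both lower, where 0.406% of all genes tested were called lower. Of the 31, 29 had log2 changes below 0, with a median of -0.43. Without replicate 2 the median was -0.41 and 1 was called. Of 10 markers of periportal hepatocytes, 6 of which are also on this list, 9 had log2 changes below 0, with a median of -0.49. None of these markers was called by edgeR with all mice, and 1 was called lower without replicate 2 on 500 ppm. With all mice 5 were lower at an unadjusted p under 0.05, and DESeq2 called 3 lower. They summed to 13058, 11932 and 9792 CPM on 500 ppm and 15471, 21246 and 12408 CPM on chow, and their part in the amino acid values was not tested. Cth (chr3:157894248-157925077, minus strand), the cystathionine gamma-lyase that makes cysteine from cystathionine, stood at 206, 168 and 149.9 CPM on 500 ppm and 432, 664 and 302 CPM on chow. No mouse on 500 ppm reached the lowest chow mouse (log2 change -1.42, SE 0.22, edgeR adjusted p 0.00989). Outside the list, 4 mitochondrial or cytosolic dehydrogenases of amino acid breakdown fell: Sardh (-0.68), which acts on sarcosine, Ivd (-0.69) and Acadsb (-0.70), which act on branched-chain acyl groups, and Aldh7a1 (-0.64) of lysine breakdown, with edgeR adjusted p-values of 0.0174, 0.0113, 0.00989 and 0.0293. Their levels on 500 ppm were within 2-fold of those on chow.

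The remaining named falls were of mixed function. Htra4, a serine protease, was near the lower limit of detection on 500 ppm, with 1, 6 and 1 counts against 16, 17 and 19 on chow (edgeR adjusted p 0.0187). The size of its log2 change, -3.08, depends on the default prior count of the fit. Rhbg, an ammonium transporter of pericentral hepatocytes, stood at 2.58, 0.92 and 2.59 CPM on 500 ppm and 7.9, 5.41 and 6.76 CPM on chow (-1.76, edgeR adjusted p 0.0284). Only 39.2% of the 31-base stretches of Rhbg occur in no other gene, so the assignment of its reads is uncertain. Rhbg was the 1 of 10 pericentral markers called by edgeR, and DESeq2 called 3, all lower. Of the 10, 8 had log2 changes below 0 (median -0.26, and -0.17 without replicate 2). The groups were separated with 500 ppm lower in 4, against 9.74% of all genes. The markers summed to 7941, 5848 and 10083 CPM on 500 ppm and 8957, 9478 and 8464 CPM on chow. These sums include Cyp1a2, which was far higher in replicate 3 on 500 ppm than in its mates (values in the last section). The C-mannosyltransferase gene Dpy19l3 (-1.67), the short-chain dehydrogenase gene Bdh2 (-1.48), and Neb (-1.48), the gene of the muscle protein nebulin, had edgeR adjusted p-values of 0.00989, 0.0181 and 0.0365. Dpy19l3 stood at 4.05, 4.46 and 5.82 CPM on 500 ppm and 15.2, 16.1 and 14.5 CPM on chow, and the 3 mice of each group lay close together. Other genes that fell were Il6ra (-0.91), the interleukin 6 receptor, Saa4 (-0.99), the constitutive serum amyloid A, Pigr (-0.60), the polymeric immunoglobulin receptor, and B2m (-0.55), the light chain of MHC class I, with edgeR adjusted p-values of 0.0177, 0.0177, 0.0298 and 0.0177. Saa4 was the 1 called gene of 24 acute phase genes, of which 15 had log2 changes above 0 and 6 were higher at an unadjusted p under 0.05. Their median log2 change was 0.28, and 0.04 without replicate 2.

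Lists of lipid genes held few calls. All 24 genes of cholesterol synthesis had log2 changes below 0 (median -0.42, and -0.27 without replicate 2), but none was called by edgeR or DESeq2 and 1 had an unadjusted p under 0.05. Only 2 of the 24 separated the groups without overlap, against 9.74% of all genes in that direction. Their summed level was 3426, 2985 and 4658 CPM on 500 ppm and 3580.5, 5267 and 5635 CPM on chow, which overlap. Among 18 genes of fatty acid and triglyceride synthesis 14 had log2 changes above 0 and 7 separated the groups, with 500 ppm higher, against 7.92% of all genes; edgeR called none (median 0.46), 3 had an unadjusted p under 0.05, and DESeq2 called 2 higher. Pklr, the liver pyruvate kinase, stood at 484, 446 and 451 CPM on 500 ppm and 191, 257 and 256 CPM on chow, and just missed the threshold at an edgeR adjusted p of 0.0515 (log2 change 0.97). Pnpla3, a triglyceride lipase and acyltransferase, stood at 3.19, 12.2 and 4.89 CPM on 500 ppm and 0.564, 0.746 and 0.945 CPM on chow (3.16, adjusted p 0.0642). Both genes were thus higher in the 500 ppm means but not called. Lepr was the 1 called gene of 20 on glucose and insulin responses, and Apoa4 the 1 of 12 on lipid droplets and lipoprotein export.

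All 20 tested genes of fibrosis and matrix had log2 changes above 0, with a median of 0.69 and of 0.57 without replicate 2, and 8 of them separated the groups with 500 ppm higher, against 7.92% of all genes. Only Col5a1, a chain of fibrillar collagen V, was called by edgeR, while DESeq2 called 4, all higher. An unadjusted p under 0.05 was reached by 12, against 13.7% of all genes tested in either direction. Col5a1 stood at 11.4, 13.8 and 17.5 CPM on 500 ppm and 8.56, 8.01 and 7.56 CPM on chow (log2 change 0.83, SE 0.17, edgeR adjusted p 0.0411), and the adjusted p was 0.089 without replicate 2. Of 9 markers of stellate cells, which make matrix in the liver, all had log2 changes above 0 and 6 separated the groups, against the same 7.92%. None was called by edgeR or DESeq2, and 4 had an unadjusted p under 0.05. They summed to 256, 269 and 290.2 CPM on 500 ppm and 230.2, 210.5 and 214 CPM on chow. Of 8 markers of activated phagocytes Cd9 was the 1 called, and their sums were 48.6, 78.5 and 65.3 CPM on 500 ppm and 47.3, 50.3 and 50.8 CPM on chow. The part of stellate or phagocyte number in the matrix values was not tested.

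Kupffer and endothelial markers gave no call by edgeR or DESeq2, and 1 of them had an unadjusted p under 0.05. The 11 Kupffer cell markers summed to 162, 317 and 205 CPM on 500 ppm and 200.2, 226 and 243 CPM on chow, with replicate 2 the highest and its mates within or below the chow range. The 11 sinusoidal endothelial markers summed to 434, 444 and 456 CPM and 473, 467 and 423 CPM, which overlap. The 7 genes of MHC class II presentation all had log2 changes below 0 (median -0.92), but none was called by edgeR or DESeq2. An unadjusted p under 0.05 was reached by 5, and 3 separated the groups with 500 ppm lower, against 9.74% of all genes. They summed to 64.6, 86.9 and 71 CPM on 500 ppm and 99.5, 112 and 211 CPM on chow, where replicate 3 was the highest. The 20 clock genes had a median log2 change of -0.04 with replicate 2 and -0.49 without it. Dbp, a clock output factor whose transcript swings widely over the day, stood at 1.81, 57.1 and 6.04 CPM on 500 ppm and 3.2, 12.8 and 70.2 CPM on chow, so that the mice of each group differed widely among themselves. The labels give no hour of tissue collection.

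Of the 80 genes called with all mice, 43 were also called without it, which is 53.8% of the 80 and 78.2% of the 55 called without it. The other 37 genes had adjusted p-values of 0.0501 to 0.163 without that mouse. Since the groups of these genes did not overlap, their direction could not change when 1 mouse was left out. Of the genes named above these were Hamp, Fst, Gal3st1, Defb1, Impa2, Cd9, Slc16a6 and Col5a1 among the rises. Among the falls they were Cyp2c54, Cyp2c55, Cyp3a16, Cyp2c23, Ugt2b1, Sult5a1, Ces1b, Akr1c19, Nat8, Pgrmc1, Sardh, Aldh7a1, Il6ra, Saa4, B2m and Neb. The 12 genes called only without replicate 2 included Cyp2b10 and Gsta4 above and the following. Ccl9, a chemokine, stood at 29.9, 59.9 and 27.8 CPM on 500 ppm and 43.6, 54.2 and 45.5 CPM on chow, so that replicate 2 alone was above the chow mice (log2 change without it -0.73, edgeR adjusted p 0.0282). Gpcpd1, a glycerophosphocholine phosphodiesterase, stood at 61.5, 153 and 74.6 CPM on 500 ppm and 143, 118 and 119 CPM on chow, again with replicate 2 alone above the chow mice (-0.90, adjusted p 0.0402). Cryl1, a crystallin-related dehydrogenase, had -0.90 with replicate 2 (edgeR adjusted p 0.06) and -1.15 without it (0.0286). Ces1g (-0.84), Aldh1b1 (-1.18), Apol9b (-1.04) and Dmd (-0.63) were lower without replicate 2, and Trip10 (0.73) and Olfr1033 (0.74) higher, with edgeR adjusted p-values from 0.0243 to 0.0448. The last of the 12 is a predicted gene.

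**Figure D5:**
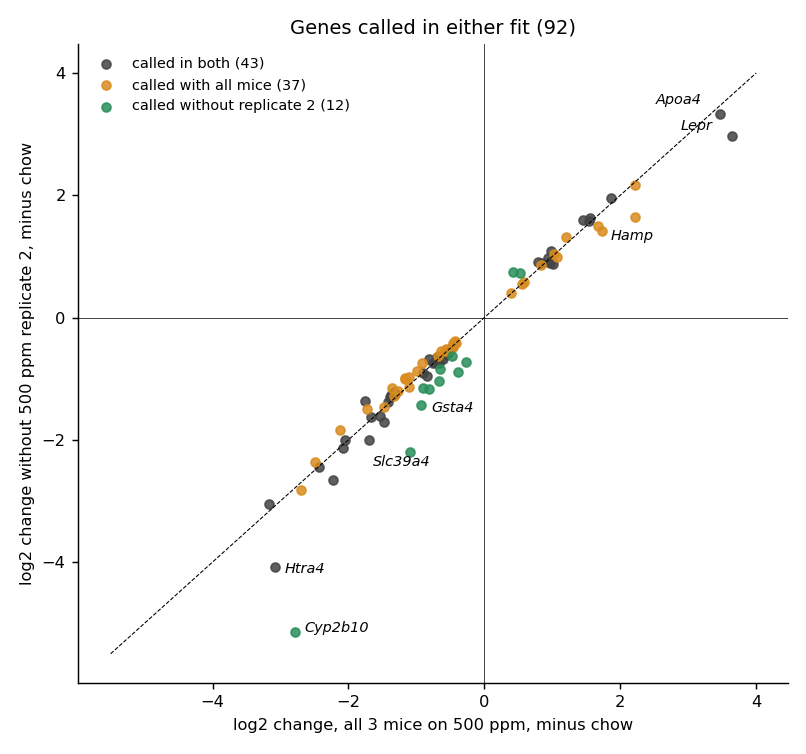
Log2 change of 500 ppm against chow without replicate 2 on 500 ppm (vertical axis) against that with all 6 mice (horizontal axis) for the genes called in either fit; colours give genes called in both (43), with all mice only (37) and without replicate 2 only (12). Points near the diagonal have the same change in both fits; Cyp2b10 lies farthest below it.

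The 80 genes were also read on the other diets, where the comparisons share the chow or the 500 ppm mice and are therefore not independent. Between 500 ppm and 50 ppm edgeR called 0 genes, with 428 of 13560 (3.16%) at an unadjusted p under 0.05. Cyp3a11 stood at 3565, 1632 and 1739.6 CPM on 50 ppm and 1566, 1581 and 1446 CPM on 2% iron. Cyp2a5 stood at 132, 108 and 140.2 CPM on 50 ppm and 65.2, 45.5 and 96.4 CPM on 2% iron. Cyp2c29 stood at 685, 511 and 565 CPM on 50 ppm and 649, 597 and 631 CPM on 2% iron. In these 3 genes each mouse on 50 ppm and on 2% iron was below each chow mouse, as on 500 ppm. The log2 change of 50 ppm against chow was -1.45 for Cyp2c29 (edgeR adjusted p 0.00397). For Cyp3a11 and Cyp2a5 it was -1.47 (edgeR adjusted p 0.0673) and -1.85 (0.0353). Slc39a4 stood at 15.1, 19.3 and 21.6 CPM on 50 ppm and 23.9, 24.2 and 16.5 CPM on 2% iron, and Steap2 at 18.8, 20.5 and 17.7 CPM and 12.2, 10.9 and 13.1 CPM. Atoh8 stood at 21, 24.2 and 23 CPM on 50 ppm and 62.7, 75.3 and 71.1 CPM on 2% iron, with log2 changes against chow of 0.60 (edgeR adjusted p 0.148) and 2.22 (6.57e-06).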

How the data were processed

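The authors deposited a table of expected counts per gene (not stated as such; 26.5% of entries are not whole) for the 15 mice of the diet study. They also deposited TPM values, named so by the table; how these were made is not given in the sources used here. The submitters' processing notes name kallisto 0.46 and mm10, with no role given. Identifiers were named through GENCODE M21 of GRCm38, which matched 34845 of 35274. Expected counts were rounded and tested with edgeR 4.0.16 (glmQLFit, glmQLFTest) in R 4.3.3, with TMM factors and filterByExpr, over 5 diet groups without covariates. Log2 changes used the default prior count of that fit. A prior count of 2 entered only log2 CPM values, used for the gaps of replicate 2 and for medians of lists in each mouse. All tests were two-sided. The fit was repeated without replicate 2 on 500 ppm. A single value in 3 against 3 mice cannot go below an exact permutation p of 0.1, so none was tested alone. Replicate numbers follow accession order and pair no mice.

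Named genes were those of 48 lists and, among called genes with at least 1 CPM in the higher group and no overlap, the 15 largest rises and 15 largest falls of each fit, with predicted genes passed over; replicate 2 was described by the 10 genes with the widest gap on each side, of which some are named. Some genes the rule covers are not reported here. Others were chosen after their values were seen. The members and lists were chosen with earlier results of these data known, and 3 of the 7 motifs after these results. Alternatives were RLE factors, 2 other filters, the compared groups alone, DESeq2 1.42.0, limma 3.58.1 on log2(TPM + 1) and log2(TPM + 0.1), and each mouse left out. Uniqueness was counted over 31-base stretches of annotated transcripts.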

Additional observations from a re-analysis of the deposited data

How the results depend on the processing

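Counts of calls moved with the setting. With all mice, where 80 genes were called (25 higher, 55 lower), RLE factors gave 77, a minimum of 10 counts 81 and no filter 114 (38 higher). The compared groups fitted alone gave 24 (10 higher, 14 lower) and DESeq2 279 (102, 177), which held 79 of the 80. Limma gave 37 (9, 28) on log2(TPM + 1), 36 (12, 24) on log2(TPM + 0.1) and 33 (10, 23) on log2(TPM + 1) without a filter. Leaving out 1 mouse gave 15 to 96 calls, 4 to 39 higher and 11 to 63 lower, the fewest without chow replicate 2 (15) and the most without chow replicate 3 (96).

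Without replicate 2 on 500 ppm, where 55 were called (16 higher, 39 lower), no filter gave 100 (35, 65), the groups alone 4 (2, 2) and DESeq2 171 (51, 120). Limma gave 20 (3, 17), 20 (5, 15) and 22 (10, 12) in the same order. Leaving out a further mouse gave 1 to 64 calls, 1 to 23 higher and 0 to 41 lower: 1 without 500 ppm replicate 3, 7 without 500 ppm replicate 1, 7 without chow replicate 2 and 20 without chow replicate 1. A lone 500 ppm mouse is then assumed to vary like the other groups. Without 500 ppm replicate 3 edgeR made 0 lower calls, with 547 genes lower at an unadjusted p under 0.05.

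Of 674 values of single genes under the alternatives 478 kept direction and side of the threshold, 177 lost the call, 13 newly passed and 6 changed sign. These were Id1 (-0.48 without 500 ppm replicate 2, and up to 2.13 without another mouse), Smad7 (-0.34, up to 0.92) and Hmox1 (-0.48, up to 1.24), and Ftl1, which lay between -0.18 and 0.018 and was above 0 without 500 ppm replicate 1 (0.0055) or 3 (0.0033) or chow replicate 2. Of 439 medians of lists 401 moved by less than 1 SD between mice and 38 by more. Causes were not tested. No paired analysis was possible because replicate numbers follow accession order and pair no mice. Intervals and SEs are approximations derived from the log2 change and F statistic of the edgeR fit, and they include the spread between mice. How much of them depth adds was not tested.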

Other observations

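Replicate 3 on 500 ppm stood apart in Cyp1a1 and Cyp1a2, targets of the aryl hydrocarbon receptor. Cyp1a1 stood at 0.516, 0.436 and 47 CPM on 500 ppm and 0.846, 1.49 and 0.582 CPM on chow, and Cyp1a2 at 193, 155 and 3079.7 CPM and 576, 698 and 387 CPM. These genes were chosen after their values were seen, and neither was called, with edgeR adjusted p-values of 0.203 and 0.626. Replicates 1 and 2 were below all chow mice in Cyp1a2, and replicate 3 was above them. Replicate 2 on 500 ppm, beside the genes named above, held Marco at 25.4 CPM against 3.19 and 4.46 CPM in its mates. Cyp17a1, a steroid hydroxylase, stood at 156, 36.2 and 30.4 CPM on 500 ppm and 9.12, 16.8 and 11.7 CPM on chow (edgeR adjusted p 0.101), and the zinc transporter gene Slc39a5 at 1.89, 1.45 and 2.16 CPM and 0.094, 0.466 and 0.654 CPM (0.112).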
